A study of Mus musculus with 14 samples.

Results

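The genes described here are the voltage-gated and potassium channel genes of the mouse: the 130 autosomal protein-coding genes whose symbol starts with Kcn, with Scn and a digit, or with Cacn, of 20665 autosomal protein-coding genes in all. They were picked by a rule on the symbol, and an imprinted Kcn gene was left out by the same rule. No measured value enters the rule, but it was set with earlier results of these data known. The study mapped chromatin by ChIP-seq in cultured cells that the labels call PDGF Neural Stem Cells and that the design text gives as murine DIPG, a glioma that arises in the pons of children. The cells expressed histone H3.3 as wild type (H3WT) or with the K27M substitution, and were kept for 12 days in DMSO, the solvent, or in 3 µM EPZ6438 (EPZ), an inhibitor of the methyltransferase Ezh2. H3K27me3 was mapped in 4 groups of 2 libraries: H3WT in DMSO, K27M in DMSO, H3WT in EPZ and K27M in EPZ. For Suz12 and Ring1b there was a single DMSO library from each genotype. How the histones were introduced, whether a line is a single clone and whether replicates were separate cultures are not stated in the labels, so p-values rest on a library-to-library spread that may be only technical.

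Voltage-gated potassium, sodium and calcium channels open and close with the membrane potential and shape action potentials, firing patterns and calcium entry in neurons, muscle and endocrine cells. Inward rectifiers and leak channels set the resting potential, and glial cells rely on them to take up potassium. H3K27me3 is the repressive histone mark written by Polycomb repressive complex 2 (PRC2), of which Suz12 is a subunit and Ezh2 the catalytic one. Ring1b is the ubiquitin ligase of the partner complex PRC1. Many ion channel genes are active in mature neurons or muscle and silent in progenitors.

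Each of the 12 libraries gave a list of peaks, from 201 peaks in the shortest to 59899 in the longest. Read depth and peak heights are unknown, so a value below says where peaks were called and not how much of a mark was present. A gene was called marked in a library with a peak within 1 kb of its start or end. The covered length of a gene is the length under peaks within 10 kb of its ends. Gene positions are those of mm10. Peak lists do not measure RNA, so cell identity could be read from them only indirectly. Of 14 markers of neural stem cells and glial progenitors, 0 were marked with H3K27me3 in both H3WT DMSO libraries, against 4 of 8 neuron markers and 3 of 10 muscle and heart markers. The share over all genes was 10.6%. Among the progenitor markers Pdgfra had a peak in H3WT replicate 2 and in both K27M libraries.

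In H3WT cells in DMSO, H3K27me3 peaks lay at the ends of 47 channel genes in replicate 1 (36.2% of 130, where 10.7% of all genes were marked) and of 73 in replicate 2 (56.2%, where 20.8% of all genes were). All 47 of replicate 1 were among the 73 of replicate 2 (99.2% over all genes). So 47 were marked in both libraries, and 10.6% of all genes were. They spread over every class of channel: 26 of 65 pore-forming potassium subunits, 5 of 10 silent Kv subunits, 3 of 16 accessory potassium subunits, 2 of 10 pore-forming sodium subunits, 2 of 4 accessory sodium subunits, 4 of 9 pore-forming calcium subunits and 5 of 16 accessory calcium subunits. Channel genes made up 0.629% of all genes, 2.13% of the genes marked in replicate 1 and 1.7% of those marked in replicate 2. No set test was made of these shares. Channel genes were also longer, with a median of 47.4 kb against 17.5 kb over all genes. Whether gene length bears on these shares was not tested.

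**Figure D1:**
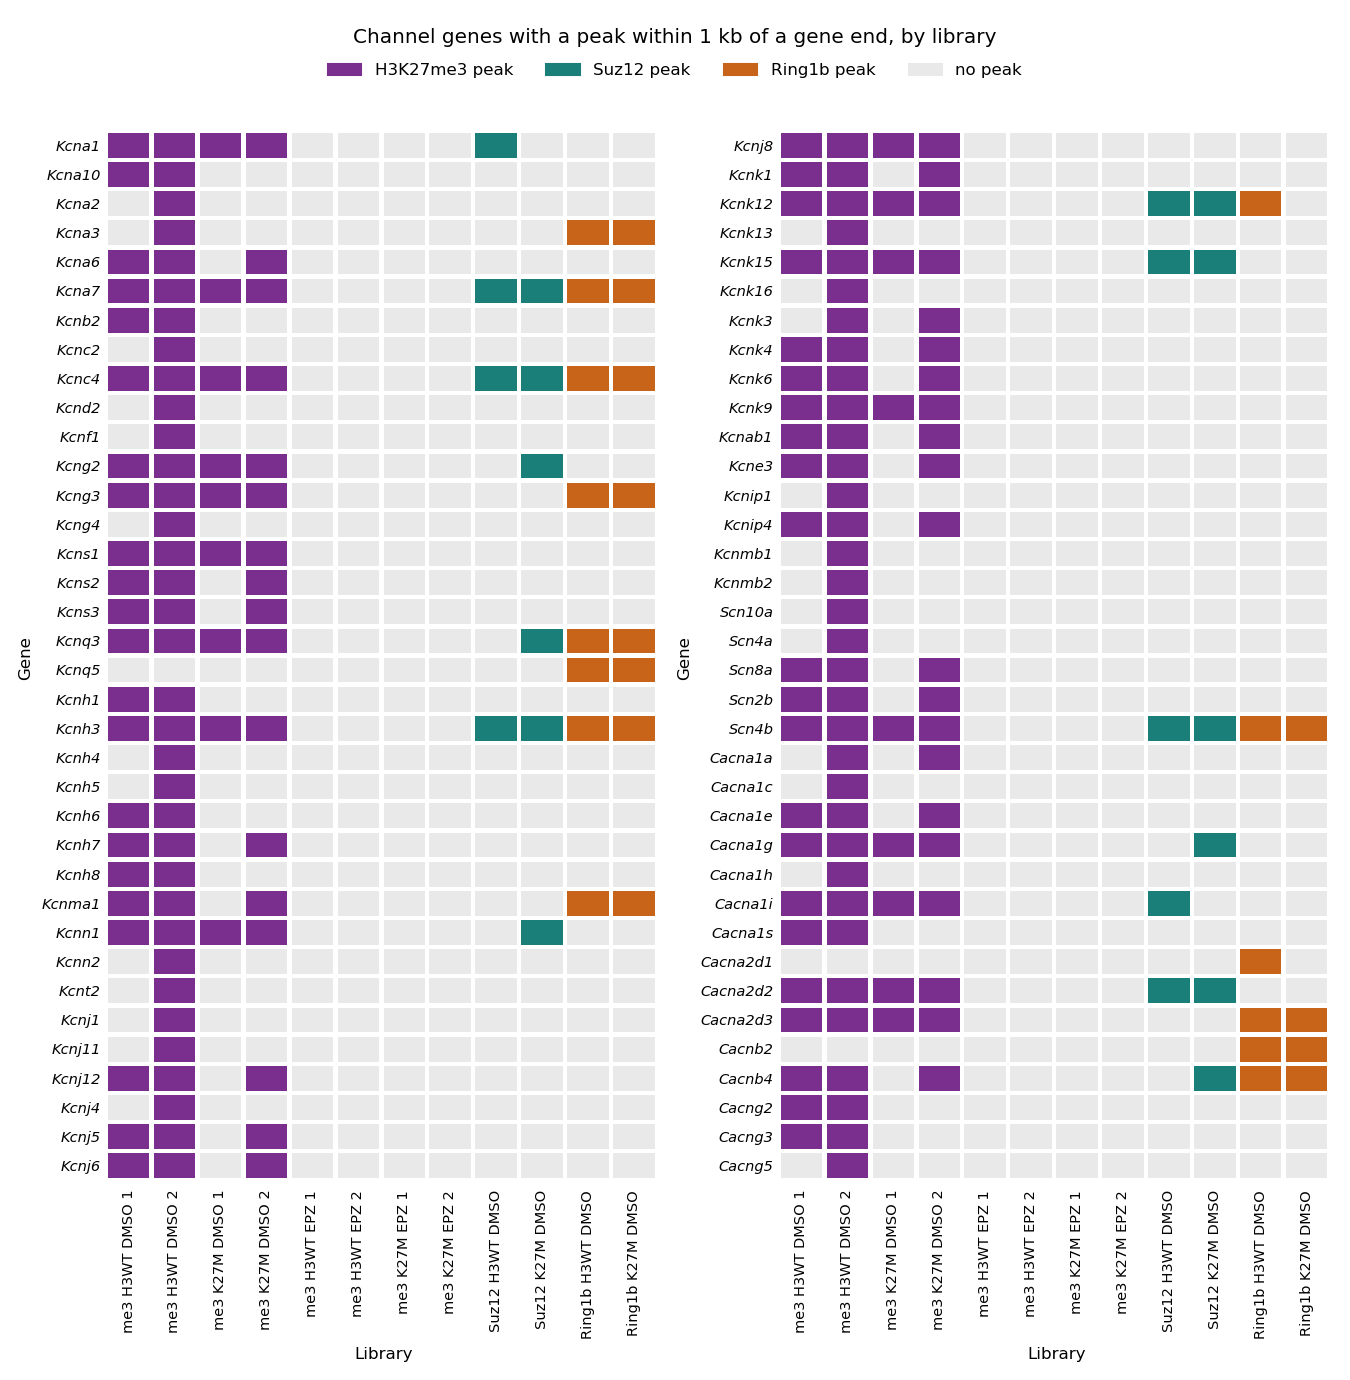
Channel genes (rows, ordered by family and continued in the right panel) with a peak within 1 kb of a gene end in each of the 12 libraries (columns; me3 is H3K27me3). Coloured cells are peaks and grey cells are none. The rows are 72 of the 77 genes with a peak in at least 1 library. Over all 130 genes the marked number was 73 in H3WT replicate 2, 20 in K27M replicate 1 and 0 in each of the 4 EPZ libraries.

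Where an H3K27me3 peak lay at an end of a channel gene, it was mostly at the start. The same split over all genes is not given here, and peaks inside a gene alone are described further below. A transcription start was available for 97 of the 130 genes. In H3WT replicate 1, 29 of these 97 had a peak at the start alone, 4 at both ends and 2 at the far end alone. The counts were 35, 15 and 5 in H3WT replicate 2, 11, 1 and 0 in K27M replicate 1, and 22, 5 and 1 in K27M replicate 2. The share of the 97 genes under a peak was highest within the gene close to the start. It reached 34% at 0.5 kb past the start in H3WT replicate 1, where 6.98% of 16457 coding genes were covered. In H3WT replicate 2 it reached 44.3% at 1.5 kb, where 11.6% of the coding genes were covered. At 10 kb into the gene the shares were 3.09% and 11.3%.

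**Figure D2:**
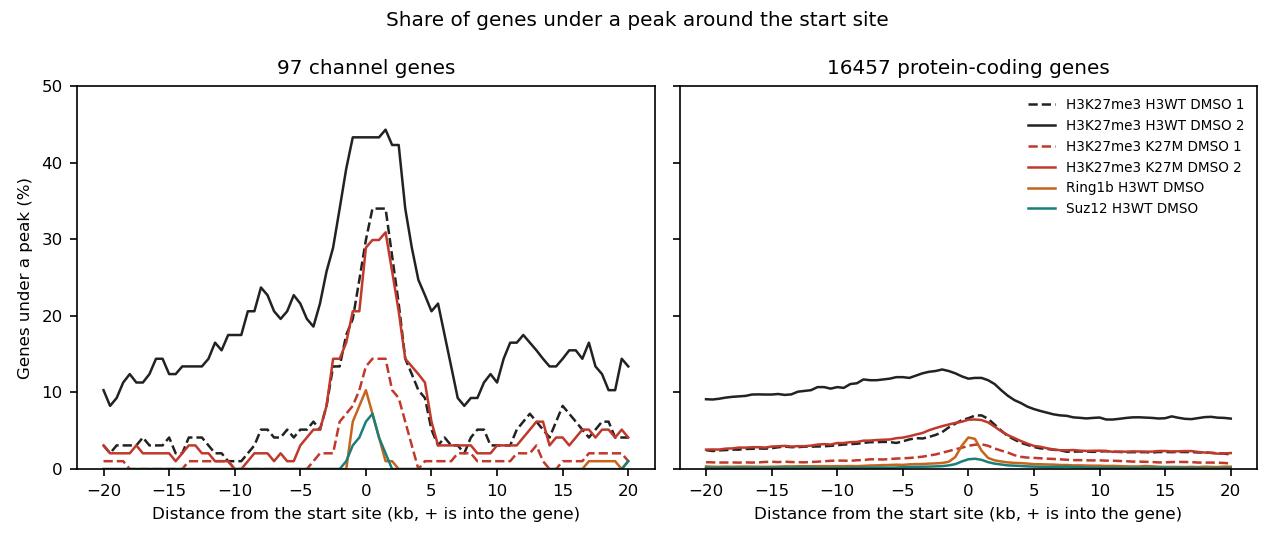
Share of genes lying under a peak (vertical axis, percent) by distance from the start site (horizontal axis, kb, positive into the gene), for 97 channel genes (left) and 16457 protein-coding genes (right). Lines are libraries in DMSO. Channel genes show a peak of H3K27me3 around the start in each of the 4 libraries, up to 44.3% in H3WT replicate 2, and narrower ones for Ring1b (10.3%) and Suz12 (7.22%) in H3WT.

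Setting K27M against H3WT without the inhibitor asks what the mutant histone, which carries methionine at the methylated residue, does to the mark at these genes. In K27M cells 20 channel genes were marked in replicate 1 (15.4%, where 4.62% of all genes were) and 42 in replicate 2 (32.3%, where 10% were). The group means were 60 ± 18.4 in H3WT and 31 ± 15.6 in K27M (SD, n = 2), a difference of -29 genes. The groups did not overlap, but K27M replicate 2 with 42 genes came close to H3WT replicate 1 with 47. The exact two-sided permutation test gave p = 0.333, the smallest value that 2 libraries against 2 allow, so the difference could not pass 0.05.

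The lower counts in K27M were not limited to channel genes. Within replicate 1, H3WT had 2.35 times as many marked channel genes as K27M, and 2.31 times as many marked genes overall. Within replicate 2 the ratios were 1.74 and 2.08. As a percentage of all marked genes, channel genes were 2.09% and 2.03% in K27M, and the difference from H3WT was 0.148 percentage points, the opposite sign to the count (exact permutation test, p = 1). The shorter lists were subsets of the longer ones. All 20 genes of K27M replicate 1 were among the 42 of replicate 2 (100% over all genes). All 42 were among the 73 of H3WT replicate 2 (98.8% over all genes). The lists of K27M replicate 2 and H3WT replicate 1 were close in size and shared 39 genes. That was 92.9% of the former and 83% of the latter (85.9% and 80.6% over all genes). The genes of K27M replicate 2 outside H3WT replicate 1 included Cacna1a and Kcnk3. A K27M peak at a channel gene that had none in either H3WT library was seen at 0 genes, and 0 were gained in both K27M libraries (0.0145% of all genes were).

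Of the 47 genes marked in both H3WT libraries, 20 also had a peak in each K27M library and are called retained (42.6%, and 42.8% over all genes). A further 19 were partial, with a peak in 1 K27M library (40.4%, and 38.4% over all genes), and 8 were lost, with a peak in neither (17%, and 18.8% over all genes). These shares lie close to those of all genes, so they say nothing particular about channels. Single families hold few marked genes each, and no family was tested against these shares. In each of the 19 partial genes the K27M peak was in replicate 2. The retained class was therefore set by K27M replicate 1: with replicate 2 alone, 42 of 73 genes were retained and 31 lost.

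**Figure D3:**
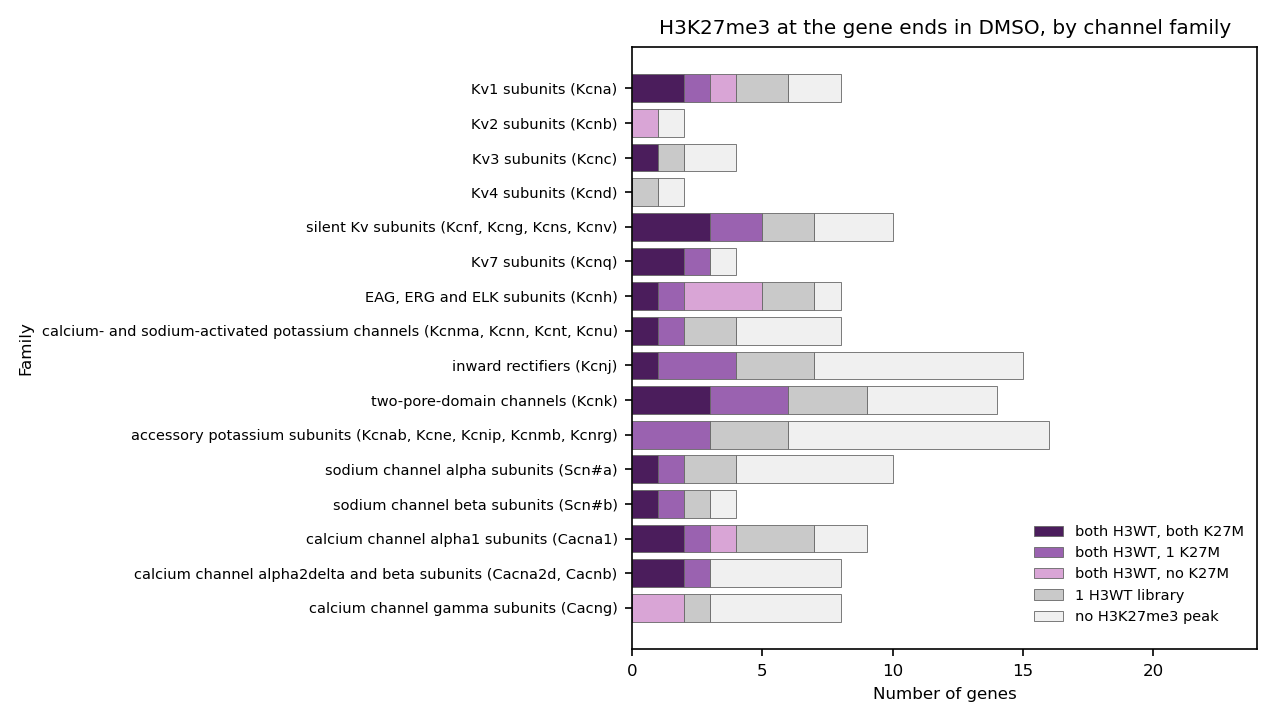
Number of channel genes (horizontal axis) in each family (vertical axis) by the H3K27me3 libraries in DMSO with a peak at a gene end. Dark, middle and pale purple are genes marked in both H3WT libraries and in both, 1 or neither of the K27M libraries, dark grey genes marked in 1 H3WT library, and pale grey the rest. The silent Kv subunits had 5 of 10 genes marked in both H3WT libraries, and the gamma subunits of calcium channels 2 of 8, neither of them marked in K27M. Over all genes 10.6% were marked in both H3WT libraries, and 18.8% of these had no K27M peak.

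Among the pore-forming Kv subunits, Kcnc4 was retained. It encodes a Kv3 subunit of fast-inactivating currents and lies on chromosome 3 from 107438298 to 107460287. H3K27me3 covered 18.6 and 33.6 kb in H3WT replicates 1 and 2 and 7.56 and 14.9 kb in K27M. Both K27M values were below both H3WT values. In H3WT replicate 2 a peak also reached an end of Slc6a17. Within 5 kb of its ends in place of 10 kb, its mean cover in H3WT was 13.3 kb and not 26.1 kb. Among its Kv3 relatives, Kcnc2 was marked in H3WT replicate 2 alone, and Kcnc1 in no library.

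Of the 8 Kv1 genes, 4 were marked in both H3WT libraries. Kcna1, the axonal subunit mutated in episodic ataxia (chromosome 6, 126636463 to 126645801), had 9.43 and 19.1 kb in H3WT and 2.45 and 6.76 kb in K27M, again without overlap between the genotypes. Kcna7, a muscle subunit (chromosome 7, 45405960 to 45411382), was different: it had 14.5 and 15.5 kb in H3WT and 14.2 and 15.2 kb in K27M, nearly equal in all 4. In each library its peak also reached the ends of Lhb and Ntf5, so the cover is not that of Kcna7 alone. Kcna10 was lost, with 4.15 and 21 kb in H3WT and 0 and 1.5 kb in K27M. Its genome neighbours Kcna2 and Kcna3, subunits of axons and of lymphocytes, were marked in H3WT replicate 2 alone, with 12.1 and 12.9 kb there.

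The Kcnq genes include those of the M-current, which dampens repetitive firing. Kcnq3, an M-channel subunit (chromosome 15, 65986374 to 66286636), was retained, with 3.17 and 15.4 kb in H3WT and 1.69 and 9.34 kb in K27M. Its value in K27M replicate 2 exceeded that in H3WT replicate 1, so the genotypes overlapped. Kcnq5 had no H3K27me3 peak at its ends.

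Of the Kcnh genes, which encode the EAG, ERG and ELK channels, 5 were marked in both H3WT libraries. Over all genes marked there 18.8% were lost. Kcnh genes held 3 of the 8 lost channel genes. These were Kcnh1 (EAG), with 4.36 and 8.02 kb in H3WT and 1.01 and 2.93 kb in K27M, Kcnh8 (ELK), with 2.97 and 8.23 kb and 0 kb in both, and Kcnh6 (ERG), with 1.79 and 6.25 kb and 0 kb in both. The values left at Kcnh1 came from peaks further than 1 kb from its ends. At Kcnh6 the peaks of H3WT replicate 2 at its start also reached Ace3. Kcnh3, an ELK channel of the forebrain (chromosome 15, 99224517 to 99242818), was retained. It had 9.24 and 15 kb in H3WT and 9.95 and 13.4 kb in K27M, values that interleave. Kcnh7, an ERG channel, was partial (7.82 and 18.3 kb in H3WT, 0 and 4.58 kb in K27M). Its relative Kcnh2, the main cardiac ERG gene, was marked in no library.

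The silent Kv subunits do not form channels alone and modify Kv2 channels. Kcng2 (chromosome 18, 80294544 to 80364254), Kcng3 and Kcns1 were retained, and Kcns2 and Kcns3 were partial. At Kcng2 H3K27me3 covered 13.1 and 24.7 kb in H3WT and 3.48 and 13.9 kb in K27M. At Kcng3 it was 3.64 and 6.88 kb in H3WT and 2.81 and 6.18 kb in K27M. Kcnb2, a Kv2 gene, was lost (2.16 and 4.79 kb in H3WT, 0 kb in both K27M libraries). Of the Kv4 genes, Kcnd2 was marked in H3WT replicate 2 alone, with 12.2 kb there, and Kcnd3 in no library.

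Among the 14 leak channels (Kcnk), 6 were marked in both H3WT libraries. Of these, 3 were retained and 3 partial (42.8% and 38.4% over all genes). Kcnk12 (chromosome 17, 87745821 to 87797994) had 9.85 and 17 kb in H3WT and 5.94 and 10.8 kb in K27M. Kcnk15 had 10.5 and 12.3 kb in H3WT and 5.15 and 10.7 kb in K27M, from a peak that also reached an end of Rims4 in 3 of the 4 libraries. Kcnk9, a TASK channel, was the other retained gene, and Kcnk1, Kcnk4 and Kcnk6 were the partial ones.

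Of 15 inward rectifiers 4 were marked in both H3WT libraries, and 1 of these was retained (42.8% over all genes). This was Kcnj8, the pore of vascular ATP-sensitive channels. It had 3.47 and 8.28 kb in H3WT and 3.45 and 5.91 kb in K27M. The partial genes were Kcnj5, Kcnj6 and Kcnj12, of which the former pair encodes G-protein-gated channels. Kcnj5 had 5.88 and 16.2 kb in H3WT and 0 and 8.07 kb in K27M. Kcnj10, the main potassium channel of glia, and its partner Kcnj16 had 0 kb of H3K27me3 cover in every library, as had Kcnj2 and Kcnj9. Among channels gated by calcium or sodium, Kcnn1 was retained (4.13 and 5.13 kb in H3WT, 3.45 and 4.82 kb in K27M). Kcnma1, the large-conductance BK channel, was partial, with 2.39 and 16.5 kb in H3WT and 0 and 2.34 kb in K27M.

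Accessory potassium subunits were marked at 3 of 16 genes in both H3WT libraries, and 0 of these 3 were retained (42.8% over all genes). They were Kcnab1, Kcnip4 and Kcne3, each partial. Kcne3, a single-span partner of Kcnq channels (chromosome 7, 100176507 to 100184869), had 9.98 and 17.7 kb in H3WT and 5.6 and 10.8 kb in K27M. In K27M replicate 1 that cover lay more than 1 kb from its ends, so the gene was not called there. Kcnip1 and Kcnmb1, whose genes overlap each other, were marked in H3WT replicate 2 alone.

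Sodium channel genes were marked in both H3WT libraries at 2 of 4 accessory and 2 of 10 alpha subunits. Scn4b, the beta subunit of resurgent currents (chromosome 9, 45138624 to 45154155), had 23.6 and 25.6 kb in H3WT and 8.01 and 14.6 kb in K27M, with no overlap of the genotypes. Its neighbour Scn2b (chromosome 9, 45117876 to 45130070) shared a peak of 22.6 kb in H3WT replicate 1 and of 26.8 kb in replicate 2 with it, so these are not independent. Scn2b was partial. Among the alpha subunits, Scn8a, the channel of nodes of Ranvier, was partial (4.07 and 16.6 kb in H3WT, 0 and 9.48 kb in K27M). The alpha subunit genes on chromosome 2, Scn1a, Scn2a, Scn3a, Scn7a and Scn9a, were marked at an end in no library. Of these 5, all but Scn3a had between 1.66 and 4.4 kb of cover in H3WT replicate 2, none of it within 1 kb of an end.

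Among the pore-forming calcium channels, the T-type genes Cacna1g and Cacna1i were retained. Cacna1g (chromosome 11, 94408391 to 94474400) had 2.23 and 16.3 kb in H3WT and 1.73 and 9.47 kb in K27M. Cacna1i (chromosome 15, 80287238 to 80398292) had 8.64 and 11.8 kb in H3WT and 3.87 and 5.89 kb in K27M. Cacna1e, an R-type channel, was partial (5.25 and 21.5 kb, 0 and 2.18 kb). Cacna1s, the channel of skeletal muscle, was lost, but its H3WT peaks of 1.65 and 2.23 kb also reached Ascl5. The L-type gene Cacna1c and the P/Q-type gene Cacna1a were marked in H3WT replicate 2 but not in replicate 1, and Cacna1b and Cacna1d in no library.

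The auxiliary calcium subunits Cacna2d2 and Cacna2d3, which bring channels to the membrane, were retained. Cacna2d2 (chromosome 9, 107399733 to 107529346) had 9 and 19.4 kb in H3WT and 5.49 and 9.39 kb in K27M. Cacna2d3 (chromosome 14, 28904943 to 29722775) had 6.31 and 17.4 kb in H3WT and 1.88 and 8.56 kb in K27M. Of the 8 gamma subunits, Cacng2 and Cacng3, which escort AMPA receptors at synapses, were marked in both H3WT libraries and lost. Cacng3 (chromosome 7, 122671744 to 122769393) had 2.78 and 19.8 kb in H3WT and Cacng2 had 2.68 and 4.26 kb, and each had 0 kb in both K27M libraries.

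**Figure D4:**
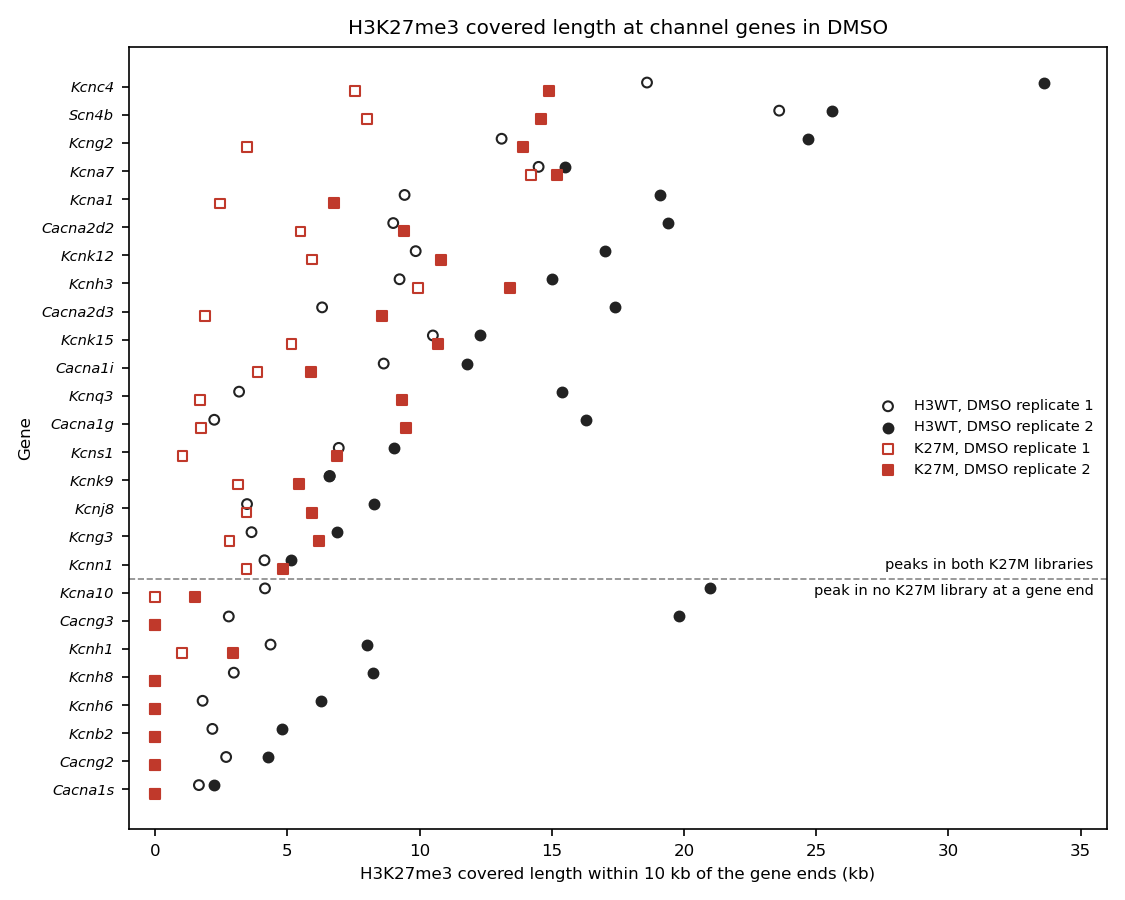
H3K27me3 covered length within 10 kb of the gene ends (horizontal axis, kb) for 18 of the 20 retained and all 8 lost channel genes (vertical axis), with 1 point per DMSO library. Black circles are H3WT and red squares K27M, open for replicate 1 and filled for replicate 2. Kcna7 has nearly equal values in all 4 libraries (14.2 to 15.5 kb), and Kcnc4 is lower in both K27M libraries (7.56 and 14.9 kb against 18.6 and 33.6 kb).

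Retained genes had shorter cover in K27M. Within replicate 1 the K27M length was below the H3WT length at 19 of 20 retained channel genes, with a median ratio of 0.499 (range 0.135 to 1.08). Within replicate 2 it was below at 20 of 20, with a median of 0.621 (0.354 to 0.985). Over the 936 retained genes of all kinds the medians were 0.656 and 0.781. Ratios near 1 in both replicates were found at Kcna7 (0.974 and 0.985), Kcnh3 (1.08 and 0.893) and Kcnn1 (0.835 and 0.94), while Kcnj8 had 0.995 and 0.714. Low ratios were found at Kcns1 in replicate 1 (0.149, and 0.76 in replicate 2) and at Kcna1 in both (0.26 and 0.354). Among the retained genes named here, both K27M values were below both H3WT values at Kcnc4, Kcna1, Scn4b, Cacna1i, Kcns1 and Kcnk9. The genotypes overlapped at Kcng2, Kcng3, Kcnq3, Kcnj8, Kcnn1, Kcnk12, Kcnk15, Cacna1g, Cacna2d2 and Cacna2d3, as at Kcna7 and Kcnh3. The share of all genes without overlap is not given here. Summed over all channel genes, cover was 336 and 897 kb in H3WT and 106 and 326 kb in K27M, 3.17-fold and 2.75-fold less within the replicate numbers. The whole lists were shorter too, covering 43.6 and 217 Mb of the genome in H3WT and 13.5 and 65.5 Mb in K27M. The exact permutation test of the summed log2 length gave p = 0.333, the smallest possible.

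The EPZ comparison asks what is left of the mark when Ezh2 is inhibited. Under EPZ 0 of 130 channel genes were marked in each of the 4 libraries, where 0.91% and 0.798% of all genes were marked in H3WT and 0.532% and 0.881% in K27M. No EPZ peak lay within 10 kb of an end of a channel gene or inside one. The number of marked channel genes fell by 45.5 with EPZ over both genotypes, from 47, 73, 20 and 42 in DMSO (exact two-sided permutation test, p = 0.0286, the smallest that 4 libraries against 4 allow). The fall was 60 genes in H3WT and 31 in K27M (exact p = 0.333 in each, the smallest possible). The difference between these falls, 29 genes, gave p = 0.333 in an exact test with genotype relabelled within treatments. A mean difference between genotypes over both treatments, -14.5 genes, gave the same p. With 0 marked channel genes in every EPZ library, both values follow from the DMSO difference between genotypes. They add no separate evidence. With the replicate number as a block, p for EPZ was 0.125. The EPZ lists held few genes altogether, with 1.07% of all genes marked in any of them: 7.41% of the genes marked in both H3WT DMSO libraries had peaks in both H3WT EPZ libraries, and 21.5% of the retained genes had a peak in any EPZ library. Of the 20 retained channel genes 0 had.

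Suz12 and Ring1b mark where the Polycomb complexes themselves were found. Suz12 peaks lay at 10 channel genes in H3WT (7.69%, exact 95% interval 3.75 to 13.7%, where 1.79% of all genes were marked) and at 12 in K27M (9.23%, 4.86 to 15.6%, where 2.81% were). The genotypes shared 7 (1.35% of all genes had Suz12 in both): Kcna7, Kcnc4, Kcnh3, Kcnk12, Kcnk15, Scn4b and Cacna2d2. Kcna1 and Cacna1i were among those with a Suz12 peak in H3WT alone, and Kcng2, Kcnq3, Kcnn1, Cacna1g and Cacnb4 had one in K27M alone. With 1 library per genotype these differences have no replicate check. The intervals treat genes as independent and hold no spread between libraries, so they are no test against the share of all genes. Of the 15 channel genes with Suz12 in either genotype, 14 were retained for H3K27me3 (93.3%, and 89.6% over all genes with Suz12). The exception was Cacnb4, a beta subunit, whose K27M replicate 1 had no H3K27me3 peak.

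Ring1b peaks lay at 15 channel genes in H3WT (11.5%, exact 95% interval 6.6 to 18.3%, where 4.96% of all genes were marked) and at 13 in K27M (10%, 5.43 to 16.5%, where 5.82% were). All 13 of K27M were among the 15 of H3WT (67.5% over all genes), and Cacna2d1 and Kcnk12 had a peak in H3WT alone. The 13 shared genes (3.93% of all genes had Ring1b in both) included Kcna3, Kcna7, Kcnc4, Kcng3, Kcnq3, Kcnq5, Kcnh3, Kcnma1, Scn4b, Cacna2d3, Cacnb2 and Cacnb4. At Kcnk12 the Ring1b peak was at the far end of the gene and the Suz12 peaks at its start. Of the 15 genes, 4 had no H3K27me3 peak at an end in any DMSO library (26.7%, and 47.9% over all genes with Ring1b). Kcnq5, Cacna2d1, an auxiliary calcium subunit, and Cacnb2, a beta subunit, were among them. At Cacnb2 the Ring1b peak was 2.1 kb wide in H3WT and 1.94 kb in K27M, and at Kcnq5 1.05 and 1.06 kb.

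Kcna7, Kcnc4, Kcnh3 and Scn4b carried H3K27me3, Suz12 and Ring1b in all 8 DMSO libraries. The share of all genes with this pattern is not given here, so it cannot be called particular to channels. Given as H3WT and then K27M, the widest Suz12 peak at Kcnc4 was 2.58 and 7.43 kb, and the Ring1b peak 1.43 and 2.94 kb. At Kcnh3 the Suz12 peak was 2.15 and 8.88 kb and the Ring1b peak 1.59 and 4.5 kb. At Scn4b the widths were nearly the same in both genotypes, 1.98 and 2.09 kb for Suz12 and 1.55 and 1.61 kb for Ring1b. Suz12 was wider in K27M at 6 of its 7 shared channel genes and Ring1b at 9 of 13. Over all genes with peaks in both genotypes, 67% were wider in K27M for Suz12 and 75.9% for Ring1b.

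The sequences before the start sites were compared because most of these peaks lie at the start. The letters are RefSeq promoter sequences of GRCm38.p6, the assembly of mm10, and cover the 250 bases before a start site. Below are 4 retained genes with Suz12 in both genotypes, whose start is the annotated end of the gene and has no other gene over these bases. They are written 5′ to 3′ along the gene, with each CG dinucleotide, the site of vertebrate DNA methylation and a feature of CpG islands, in capitals.
Scn4b (chr9:45138374-45138623, + strand, 23 CG): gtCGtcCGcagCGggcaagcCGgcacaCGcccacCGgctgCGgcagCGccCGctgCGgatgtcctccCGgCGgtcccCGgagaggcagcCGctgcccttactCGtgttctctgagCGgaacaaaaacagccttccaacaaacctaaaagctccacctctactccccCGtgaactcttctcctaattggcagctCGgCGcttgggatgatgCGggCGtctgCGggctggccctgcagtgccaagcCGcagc
Kcnk12 (chr17:87797995-87798244, - strand, 16 CG): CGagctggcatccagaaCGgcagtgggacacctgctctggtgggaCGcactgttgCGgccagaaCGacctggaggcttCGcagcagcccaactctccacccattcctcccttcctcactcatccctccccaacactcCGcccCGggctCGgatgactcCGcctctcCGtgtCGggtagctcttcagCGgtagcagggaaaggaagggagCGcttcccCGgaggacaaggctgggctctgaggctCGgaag
Kcnk15 (chr2:163853500-163853749, + strand, 17 CG): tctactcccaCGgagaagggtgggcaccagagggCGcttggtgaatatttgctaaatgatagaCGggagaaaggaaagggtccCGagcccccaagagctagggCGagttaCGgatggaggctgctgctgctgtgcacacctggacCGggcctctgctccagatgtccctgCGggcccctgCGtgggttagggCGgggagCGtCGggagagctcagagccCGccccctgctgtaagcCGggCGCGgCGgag
Kcna7 (chr7:45405710-45405959, + strand, 1 CG): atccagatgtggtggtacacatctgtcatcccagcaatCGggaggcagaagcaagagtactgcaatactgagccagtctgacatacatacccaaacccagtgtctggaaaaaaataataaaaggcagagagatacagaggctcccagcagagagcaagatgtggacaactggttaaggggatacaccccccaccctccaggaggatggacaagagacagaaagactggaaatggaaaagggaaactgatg
In Scn4b, Kcnk12 and Kcnk15 the CG dinucleotides run through the window, with 23, 16 and 17 of them. Kcna7 is the exception, with 1, and its Suz12 and Ring1b peaks overlap this window and extend into the gene.

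For contrast, the next sequences are from Kcna3, with Ring1b in both genotypes and H3K27me3 in H3WT replicate 2 alone, and from Kcnk5, which had no peak in any library.
Kcna3 (chr3:107035912-107036161, + strand, 31 CG): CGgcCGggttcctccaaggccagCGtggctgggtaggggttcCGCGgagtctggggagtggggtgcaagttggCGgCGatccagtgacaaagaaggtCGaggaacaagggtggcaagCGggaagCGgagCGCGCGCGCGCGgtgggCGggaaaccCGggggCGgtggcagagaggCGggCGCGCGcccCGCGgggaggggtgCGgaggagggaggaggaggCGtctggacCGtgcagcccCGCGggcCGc
Kcnk5 (chr14:20181783-20182032, - strand, 19 CG): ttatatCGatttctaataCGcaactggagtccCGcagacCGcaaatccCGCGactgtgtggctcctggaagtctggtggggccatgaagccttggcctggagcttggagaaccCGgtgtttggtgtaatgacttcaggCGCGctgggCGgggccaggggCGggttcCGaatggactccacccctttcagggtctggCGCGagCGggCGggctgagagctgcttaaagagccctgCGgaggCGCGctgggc
Kcna3 holds 31 CG dinucleotides, the most of those printed. Kcnk5, with 19, shows that a CG-rich window was also found without any peak. It was picked for the most CG among the genes without any peak considered for printing, so it does not stand for them.

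Over the 97 channel genes with a start sequence, the median number of CG dinucleotides (CG reads the same on both strands) was 8, against 10 over 16457 coding genes. A count of 10 or more was found at 43.3% of the channel genes and 51.8% of the coding genes. By class, the median was 16.5 at the 12 retained channel genes with a sequence, 6.5 at 16 partial ones, 16 at 7 lost ones and 6 at 42 without an H3K27me3 peak. Over genes of all kinds the medians were 15 for retained, 11 for partial, 8 for lost and 11 for unmarked genes. At least 10 were found at 10 of the 12 retained channel genes (83.3%, and 71.3% of retained genes of all kinds). The count was 5 of the 16 partial ones (31.2%, and 56.7% of all partial genes) and 4 of the 7 lost ones (57.1%, and 42.5% of all lost genes). Among the 16 channel genes with Suz12 or Ring1b in any library, 14 had at least 10 (87.5%), with a median of 26.5. Over all genes with Suz12 or Ring1b the share was 81.8% and the median 20. The exceptions were Kcna7 and Kcnq5, and the Ring1b peaks of Kcnq5 lie past the start, inside the gene. These counts describe the start listed in the promoter table and not alternative starts.

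**Figure D5:**
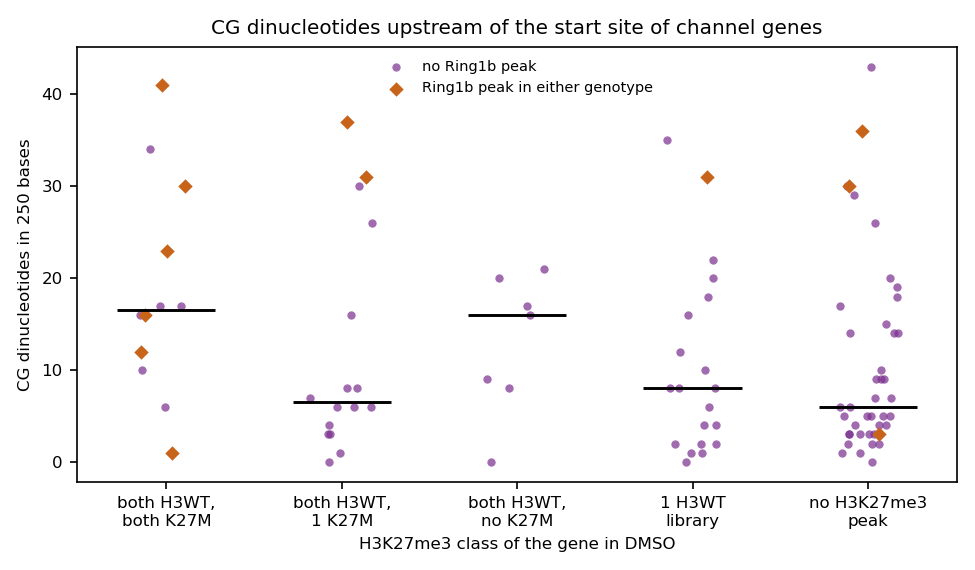
Number of CG dinucleotides in the 250 bases before the start site (vertical axis) of 97 channel genes, by H3K27me3 class in DMSO (horizontal axis). Points are genes, orange diamonds those with a Ring1b peak in either genotype, and bars medians. Retained genes have a median of 16.5 and unmarked genes of 6 (15 and 11 over genes of all kinds), with both classes spread over most of the range.

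Other genes of membrane excitability were taken from fixed lists. Over all genes 10.6% were marked in both H3WT libraries, and of those 42.8% were retained and 18.8% lost. The lists were not tested against these shares. Of 19 further voltage-gated-like and cyclic nucleotide channels, 4 were marked in both H3WT libraries. Among these, the pacemaker channel gene Hcn4 and Catsper3 were retained, and Hcn2, another pacemaker channel gene, was partial. Catsper3 was marked in all 12 libraries, EPZ included, unlike any Kcn, Scn or Cacn gene here. Whether its peaks also reach a neighbouring gene is not given here, so they may not belong to Catsper3 alone. Of 26 TRP channels 5 were marked in both H3WT libraries, with Trpc4 retained and Trpa1 and Trpc6 lost. Of 25 chloride, acid-sensing and epithelial sodium channels 5 were marked, with 1 retained and Asic2 and Scnn1b lost. Of 20 partner genes, 5 were marked, with Lrrc26, a BK channel gamma subunit, and Stac2 retained and Lrrc38 lost. Of 14 genes of the sodium-potassium pump and chloride transport, 2 were marked, the pump regulators Fxyd1 and Fxyd7, both retained. Their marking was the same in every library, and whether they share peaks is not given here, so they may not be independent.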

How the data were processed

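ChIP-seq peak positions from 12 libraries (H3K27me3, Suz12, Ring1b) were used, and the 2 IgG libraries were not analysed here. Alignment used Bowtie 1.1.2 and mm10, per the submitters' processing notes. Peak caller, threshold, control and read depth are not given in the sources used here. The deposited score column was 0 in all lines, so only peak positions were used. A deeper library can yield more and longer peaks, and replicates differed several-fold in peak number.

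Peaks that touched or overlapped in a library were merged. Genes came from the NCBI RefSeq table of GRCm38.p6. A gene was marked with at least 1 bp of a peak within 1 kb of its start or end. Groups came from titles, genotype and treatment labels. The number of marked genes per library was compared with exact two-sided permutation tests (Python 3.11.15, numpy 2.4.6). Intervals are exact (Clopper-Pearson) and cover the counting of genes only. Only the search for peaks at gene ends was tested on simulated peak lists. Alternatives covered windows of 0 and 5 kb, covered length within 5 kb, whole genes, start sites, 500 bp of overlap, peaks of 3 kb, neighbours within 20 kb as 1 locus, single replicates, the replicate block and other measures.

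The channel genes, the lists and the tests were chosen with earlier results of these data known. Every channel gene could be named by its libraries. Covered lengths were planned for up to 10 retained and 10 lost genes, up to 10 with Suz12 or Ring1b, and the widest gene of each family; those of further genes were added after their values were seen, as were the comparisons of peak width and of CG content. Some genes are not reported by name here, and they are counted in all totals but not drawn as labelled genes.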

Additional observations from a re-analysis of the deposited data

How the results depend on the processing

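The lower number of marked channel genes in K27M kept its sign in the counts under every alternative of window, overlap, peak width and locus, but as a percentage of all marked genes it turned to 0.148 in DMSO, 0.0742 over both treatments and -0.148 for the difference in the EPZ effect (exact permutation p = 1 for each). The values over both treatments and for the EPZ effect follow from the DMSO one, because no EPZ library had a marked channel gene. The K27M and H3WT libraries overlapped with a window of 0 kb, 500 bp of overlap or 3 kb peaks (exact p = 0.667). The replicate block left the EPZ difference at -45.5 (exact p = 0.125, the smallest for 4 pairs). The labels do not say that a number marks a shared batch, and the deviations of same-numbered DMSO libraries had r = 0.51 over 130 genes. Replicate 2 had the longer list in both genotypes, so this r cannot tell a shared batch from list length. Without replicate 1 or 2 the EPZ difference ranged from -57.5 to -33.5 (exact p = 0.333, the smallest possible), marked genes in H3WT from 47 to 73, retained ones from 20 to 42 and lost ones from 27 to 31, with 0 partial. Marking in either replicate gave 73 marked, 42 retained, 0 partial and 31 lost. With a window of 0 kb 13 genes were retained and 7 had Suz12 in K27M, and with 500 bp of overlap 5 were lost. With peaks of at least 3 kb, 26 were marked, 12 retained, 9 partial and 5 lost; Suz12 had 1 gene in H3WT and 3 in K27M, and Ring1b 0 and 1. Narrow Suz12 and Ring1b peaks leave few under that rule. The other causes were not tested. Covered length within 5 kb of the ends is shorter by construction, with H3WT means of 13.3 kb at Kcnc4 (26.1 kb within 10 kb), 14.1 kb at Scn4b (24.6 kb) and 14.4 kb at Kcng2 (18.9 kb), so their order changed. With unknown depth, an uncalled gene cannot be told apart from one with too few reads.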

Other observations

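Some channel genes had H3K27me3 peaks inside the gene but none within 1 kb of an end. In H3WT there were 16 in replicate 1 and 15 in replicate 2, and in K27M 6 and 13. These were 12.3% and 11.5% of channel genes in H3WT and 4.62% and 10% in K27M, against 3.34%, 6.14%, 0.905% and 3.02% of all genes in the same libraries. Kcnn3, a small-conductance potassium channel, and Kcnj3, a G-protein-gated inward rectifier, were among them in each of the 4 DMSO libraries. Counting a peak anywhere in the gene, 48.5% and 67.7% of channel genes were marked in H3WT, against 14% and 27% of all genes. Inner Ring1b peaks without one at an end were found at 5 channel genes in H3WT (Kcnn2, Kcne1, Kcnip4, Scn1a and Cacna1c) and at 5 in K27M (Kcnn1, Kcnj3, Kcnmb3, Cacna1c and Cacna1h). That was 3.85% of channel genes in each, where 0.992% and 0.929% of all genes had such a peak. Channel genes are longer than other genes, and the share was not matched for length. Cacna1c, the cardiac and neuronal L-type channel, was the gene common to both.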
